A study of Mus musculus with 10 samples.

Results

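The mitochondrial ribosomal protein genes were taken as the rows of the 2 deposited log2 expression tables whose gene symbol begins with Mrpl or Mrps followed by a number. There were 73 of them among the 10694 genes listed in either table, 47 for the large subunit (Mrpl) and 26 for the small subunit (Mrps), and 72 of the 73 were listed in both tables. The series holds 10 RNA libraries of ear skin from c57/Bl6 mice aged 6 to 8 weeks. The benzamil group (n = 4) was treated on the skin for 6 days with imiquimod, which activates Toll-like receptors and inflames mouse skin in a way that resembles psoriasis, together with benzamil, a relative of amiloride and a blocker of epithelial sodium channels. The DMSO group (n = 4) was given imiquimod for the same time with the solvent DMSO, and the untreated group (n = 2) received nothing. All sample labels name ear skin, but the design text describes the untreated control as back skin, so body site and treatment cannot be told apart in comparisons with untreated skin. Whether replicates came from separate animals is not stated, so p-values reflect only how these samples vary, and that variation may be technical.

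Mitochondrial ribosomes translate the few proteins that mitochondrial DNA encodes, all of them parts of the oxidative phosphorylation system. Their ribosomal RNAs, 12S in the small subunit and 16S in the large, are transcribed from mitochondrial DNA, whereas every protein of both subunits is encoded in the nucleus and imported. Many of these proteins have a counterpart in the bacterial ribosome, and the others were gained in mitochondria. Most of the genes are expressed in all tissues.

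The libraries were shallow, and the depth limits what each gene can show. Over the genes of both tables the benzamil libraries held 138440 to 375455 reads, the DMSO libraries 259262 to 935714, and the untreated libraries 74614 and 71144. Levels below are CPM (counts per 1000000 reads), with the library total scaled by TMM, an edgeR factor that corrects for library composition. The worth of 1 read ran from 1.04 CPM, in DMSO library 1, to 14.8 CPM, in untreated library 2. The median member had 25.5 reads over the benzamil group, 68.5 over the DMSO group and 2 over the untreated group. At least 10 reads were reached by 65, 72 and 5 of the 72 members in the same order of groups, and 11 members had 0 reads in untreated skin. The libraries were made with a 3′ kit that samples the transcript end, so values were not divided by gene length. Ribosomal RNA took 31.0% to 45.7% of the reads in the benzamil group, 22.1% to 28.8% in the DMSO group, and 34.2% and 38.6% in the untreated libraries.

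Summed transcripts of the mitochondrial ribosomal proteins were lowest in untreated skin, while the libraries with imiquimod and benzamil overlapped those with imiquimod and DMSO. The 72 members summed to 2253, 2471, 2462 and 2843 CPM in benzamil libraries 1 to 4, to 2959, 2971, 2645 and 2729 CPM in the DMSO libraries, and to 1844 and 1542 CPM in the untreated libraries. The benzamil libraries reached into the range of the DMSO libraries through library 4, the one with the fewest reads of the 8 treated libraries. Both untreated libraries lay below all 8 treated ones. The means were 2507 ± 245 CPM with benzamil, 2826 ± 164 CPM with DMSO and 1693 ± 213 CPM in untreated skin (SD, n = 4, 4 and 2). The summed level with benzamil was 0.887-fold that with DMSO, or -0.17 on the log2 scale, and the groups overlapped. With library totals alone in place of TMM that difference was -0.42 and the groups did not overlap, and the same scaling moved the median of all genes to -0.34, against -0.09 with TMM. Summed levels were 1.67-fold higher with DMSO than in untreated skin and 1.48-fold higher with benzamil than in untreated skin. The second of these came to 1.32-fold with library totals alone, and the groups then overlapped. In whole skin, fewer cells of a type and less RNA per cell cannot be told apart.

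**Figure D1:**
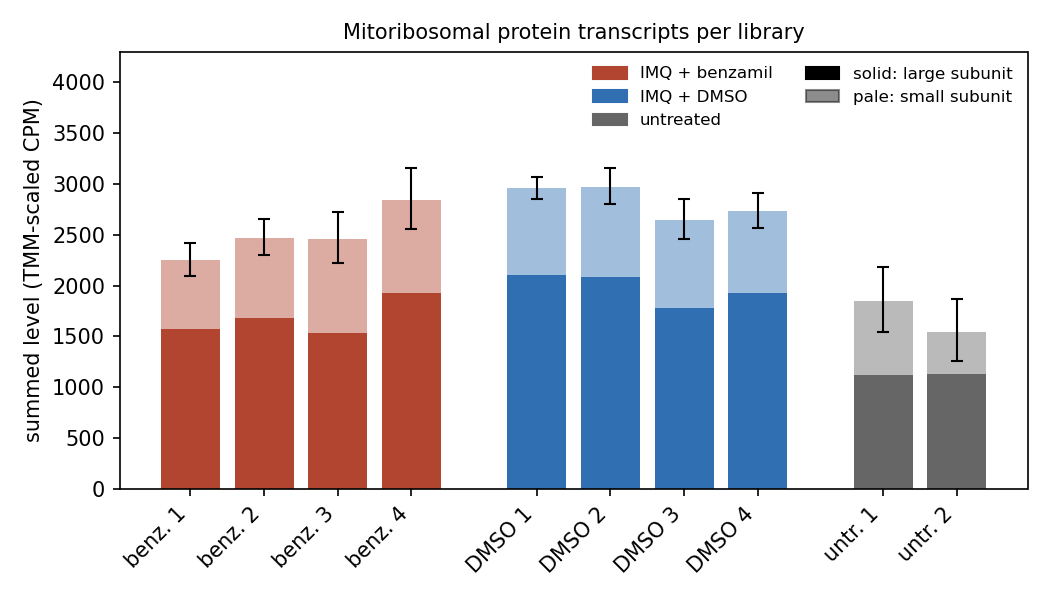
Summed level of the 72 mitochondrial ribosomal protein genes in each library, in TMM-scaled CPM, with the large subunit (solid) below the small subunit (pale). Bars stand for single libraries and the error bar is the 95% counting interval of the total. The untreated libraries, at 1844 and 1542 CPM, lie below all 8 treated libraries.

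Both subunits took part in the difference from untreated skin. The 47 large subunit genes summed to 1677 ± 175 CPM with benzamil, 1974 ± 152 CPM with DMSO and 1122 ± 7.1 CPM in untreated skin. The 25 small subunit genes summed to 831 ± 117, 852 ± 34.8 and 571 ± 220 CPM in the same groups. The DMSO libraries did not overlap the untreated ones in either subunit, with 1.76-fold for the large and 1.49-fold for the small subunit. Benzamil and untreated libraries overlapped in the small subunit.

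The balance between the subunits was then compared library by library, as reads of large subunit genes over reads of small subunit genes. This ratio was 2.30, 2.12, 1.65 and 2.09 in the benzamil libraries, 2.45, 2.36, 2.06 and 2.40 in the DMSO libraries, and 1.54 and 2.71 in the untreated libraries. All 3 groups overlapped, and the untreated libraries alone spanned the whole range of the other 8. The mean ratios were 2.04 ± 0.27 with benzamil, 2.32 ± 0.18 with DMSO and 2.13 ± 0.83 in untreated skin (SD, n = 4, 4 and 2). Pooled over each group, 1493 against 717 reads gave a ratio of 2.08 with benzamil (95% counting interval 1.90 to 2.28). With DMSO 3974 against 1676 reads gave 2.37 (2.24 to 2.51), and in untreated skin 159 against 82 reads gave 1.94 (1.48 to 2.56). These intervals cover counting error only. Library 3 had the lowest ratio of the benzamil group and also the highest share of ribosomal RNA reads, 45.7%. Most of that share was the mitochondrial mt-Rnr2, at 39.6% of the library's reads. The part of ribosomal RNA in the ratio was not tested. Mrps18a and Mrps30 carry small subunit symbols but sit in the large subunit of the mammalian structure. Counting them there gave mean ratios of 2.17, 2.45 and 2.30, again with overlap of all groups.

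**Figure D2:**
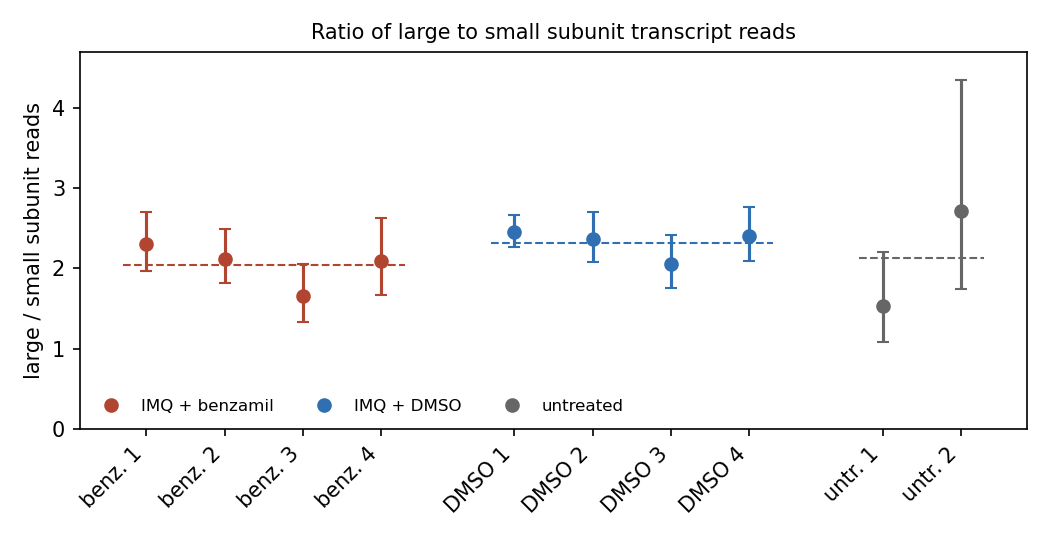
Reads of large subunit genes divided by reads of small subunit genes in each library. Points are libraries with 95% counting intervals and dashed lines are group means. The 2 untreated libraries, at 1.54 and 2.71, span all 8 treated libraries.

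Single members were tested with edgeR's quasi-likelihood test, fitted to all 10 libraries and 5245 genes and adjusted by Benjamini-Hochberg. Enough reads for the test were present for 49 of the 73 members, 35 of the large and 14 of the small subunit. The other 23 were filtered out for low reads and have no test. Mrps11, a protein of the small subunit platform, was listed in the benzamil table only, with 1, 1, 0 and 0 reads in benzamil libraries and 5, 1, 1 and 2 reads in DMSO libraries. A gene was called at an adjusted p under 0.05, and fold changes are given on the log2 scale ± an approximate standard error.

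With benzamil, 3 members were lower than with DMSO and 0 were higher. All 3 encode large subunit proteins that have bacterial counterparts. They make up 6.12% of the 49 tested members, while 12.1% of all tested genes were called lower and 9.91% higher, so the share of members called was below the background in both directions. At an unadjusted p under 0.05 there were 8 members (16.3%), against 35.3% of all tested genes. The call split of all genes was 520 higher and 635 lower, and 248 higher and 1009 lower with library totals alone. Of the 3 called members, Mrpl3 and Mrpl47 had enough reads for the test only through DMSO libraries, where they were higher. For these genes the filter and the call are not independent.

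Mrpl33, one of the smallest proteins of the large subunit, had 51.6, 46.7, 20.0 and 39.7 CPM in benzamil libraries, 126, 91.8, 55.2 and 86.1 CPM in DMSO libraries, and 13.5 and 14.8 CPM in untreated libraries. All benzamil libraries lay below all DMSO libraries, and both untreated libraries lay below every treated one. The change with benzamil against DMSO was -1.15 ± 0.31 (edgeR adjusted p = 0.0105). That call was lost without DMSO library 1, the highest (adjusted p = 0.0772), and 1 member in all was then called. Mrpl3, a core protein that reaches towards the peptidyl transferase centre, had 30.3, 26.7, 13.3 and 7.9 CPM with benzamil, 55.1, 86.4, 47.8 and 61.1 CPM with DMSO, and 26.9 and 0 CPM in untreated skin. Here too the treated groups did not overlap, and the benzamil libraries covered part of the untreated range. The change was -1.43 ± 0.38 (edgeR adjusted p = 0.00861). The called genes were picked by the test on the same libraries, so their lack of overlap adds no separate evidence. Mrpl47, which lies near the exit of the polypeptide tunnel, had 9.1, 6.7, 20.0 and 7.9 CPM with benzamil, 34.3, 27.0, 36.8 and 25.0 CPM with DMSO, and 26.9 and 0 CPM in untreated skin. The benzamil values rest on 9 reads in all. The change was -1.59 ± 0.53 (edgeR adjusted p = 0.0318), and without benzamil library 4 the adjusted p was 0.0577. Of 21 alternatives, 8 kept this call and 4 lost it, and in the other 9 Mrpl47 had too few reads for the test. Those 9 include leaving out benzamil library 1 or 2 or any 1 of the DMSO libraries. Without benzamil libraries 3 and 4, the shallowest treated libraries, 0 members were called, and the values were -1.07 for Mrpl3, -0.89 for Mrpl33 and -1.88 for Mrpl47. In the authors' deposited table Mrpl3 and Mrpl33 passed the same threshold and Mrpl47 did not (adjusted p = 0.0810).

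Mrpl17, another protein near the tunnel exit, fell just short. It had 42.5, 26.7, 33.4 and 15.9 CPM with benzamil, 68.6, 72.9, 47.8 and 44.4 CPM with DMSO, and 0 reads in both untreated libraries. Benzamil and DMSO libraries did not overlap, but the change of -0.92 ± 0.34 had an edgeR adjusted p of 0.0537. It passed with DESeq2 size factors (adjusted p = 0.0408). In all, 10 of the 72 members had every benzamil library below every DMSO library, or 13.9%, against 10.8% of all genes in both tables. Besides Mrpl3, Mrpl17, Mrpl33 and Mrpl47 these were Mrpl10, Mrpl39, Mrpl45, Mrps2, Mrps28 and Mrps35. For 0 members was every benzamil library above every DMSO library, where the background was 7.24%.

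The promoters of 3 of these genes are shown because they hold a motif of the kinds known in housekeeping mitochondrial genes. The motifs searched on both strands were GCGCA and GCGC with 1 base of any kind between them (NRF1-type), CCGGAAG (ETS-type) and AANATGGCG (YY1-type), and capitals mark the matches. Each sequence is 300 bases from RefSeq on GRCm38.p6, from 250 bases before the transcript start to 50 after it, written 5′ to 3′ on the gene's strand.
Mrpl33, chr5:31613701-31614000, plus strand: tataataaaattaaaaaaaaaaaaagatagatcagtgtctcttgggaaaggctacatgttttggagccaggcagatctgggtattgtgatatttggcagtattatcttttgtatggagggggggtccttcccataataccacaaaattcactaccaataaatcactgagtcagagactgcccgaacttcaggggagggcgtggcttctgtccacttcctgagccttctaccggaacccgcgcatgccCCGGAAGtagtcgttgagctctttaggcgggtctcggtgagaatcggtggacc
Mrpl3, chr9:105053018-105053317, plus strand: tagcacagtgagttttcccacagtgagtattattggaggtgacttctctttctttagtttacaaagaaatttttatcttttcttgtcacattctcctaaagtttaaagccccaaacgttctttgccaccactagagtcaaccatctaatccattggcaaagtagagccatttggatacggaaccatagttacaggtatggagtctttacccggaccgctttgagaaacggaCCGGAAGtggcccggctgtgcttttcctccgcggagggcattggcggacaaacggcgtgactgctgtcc
Mrpl17, chr7:105811038-105811337, minus strand: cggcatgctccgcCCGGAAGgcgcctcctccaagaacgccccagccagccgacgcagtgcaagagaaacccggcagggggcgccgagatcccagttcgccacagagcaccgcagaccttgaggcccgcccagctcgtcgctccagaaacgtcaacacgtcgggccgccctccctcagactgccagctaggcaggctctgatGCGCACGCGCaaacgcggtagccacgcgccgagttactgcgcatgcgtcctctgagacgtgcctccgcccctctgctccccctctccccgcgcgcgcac
The match in Mrpl33 and Mrpl3 is ETS-type, and Mrpl17 holds an ETS-type and an NRF1-type match. The promoter of Mrpl47 held none of the 3 motifs in this window. Those of Mrpl2, Mrpl20 and Mrps25, called against untreated skin, also held none. No promoter of Mrpl15, also called against untreated skin, is among those listed here. The 3 promoters shown were picked for their matches and do not stand for the called members. Among the 70 promoters found for 64 members, 17.1% held the NRF1-type motif, 32.9% the ETS-type and 15.7% the YY1-type motif. Among 9667 promoters of genes measured here the shares were 10.5%, 18.9% and 5.48%, and among all 32851 promoters 4.60%, 8.86% and 2.38%. At least 1 of the motifs was present in 55.7% of the members' promoters, 30.8% of those of measured genes and 14.2% of all promoters. A match describes letters and does not show a bound site.

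The other members had fold changes with benzamil on both sides of 0. Over all 72, filtered ones included, the median log2 fold change was -0.26, against -0.09 over all 9779 genes of both tables, and 51 of 72 (70.8%) were negative, against 54.8% of all genes. The median was -0.31 for the large and -0.21 for the small subunit. Among the 49 members that passed the filter it was -0.13. The 4 large subunit members with the highest mean level overlapped between benzamil and DMSO libraries. Of these, Mrpl52 and Mrpl30 had nearly equal means, whereas Mrpl12 averaged 152 CPM with benzamil and 127 CPM with DMSO. Mrpl12, the stalk protein that recruits translation factors, had 91.0, 130, 133 and 254 CPM with benzamil, 114, 162, 103 and 128 CPM with DMSO, and 121 and 119 CPM in untreated skin. These values overlap in all groups, with 0.17 ± 0.26 for benzamil against DMSO. Mrpl52, a protein specific to mitochondria, averaged 91.2 ± 9.7 CPM with benzamil, 90.8 ± 16.6 CPM with DMSO and 133 ± 20.8 CPM in untreated skin. Mrpl30 averaged 65.2 ± 10.7, 63.7 ± 13.3 and 72.8 ± 64.9 CPM, and Mrpl15, a core protein of the large subunit, 84.9 ± 29.1, 72.9 ± 16.9 and 14.8 ± 21.0 CPM in the same order.

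Among the 49 tested members, the largest positive fold changes with benzamil were those of Mrps24, Mrpl14 and Mrps12, none of which were called. Mrps24, a protein of the mRNA entry side, averaged 59.4 ± 14.1 CPM with benzamil, 37.1 ± 13.0 CPM with DMSO and 35.7 ± 12.4 CPM in untreated skin (0.52 ± 0.32, edgeR adjusted p = 0.263). Mrpl14 averaged 55.0 ± 12.5 CPM with benzamil and 40.9 ± 11.4 CPM with DMSO (0.49 ± 0.32, edgeR adjusted p = 0.273). Mrps12, a protein of the decoding centre, had 57.6, 63.4, 120 and 135 CPM with benzamil, 47.8, 59.4, 69.9 and 80.5 CPM with DMSO, and 162 and 14.8 CPM in untreated skin. Its value was 0.46 ± 0.35 (edgeR adjusted p = 0.359), and the untreated libraries differed from each other more than the treated groups did. The other abundant small subunit genes also overlapped between benzamil and DMSO libraries. Mrps7, which binds the 12S RNA, averaged 79.2 ± 29.3 CPM with benzamil and 69.8 ± 13.3 CPM with DMSO, Mrps16 69.4 ± 25.9 and 60.9 ± 8.7 CPM, and Mrps15 63.0 ± 29.2 and 49.9 ± 11.2 CPM. In each of these 3 genes benzamil library 3 was the highest of its group.

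**Figure D3:**
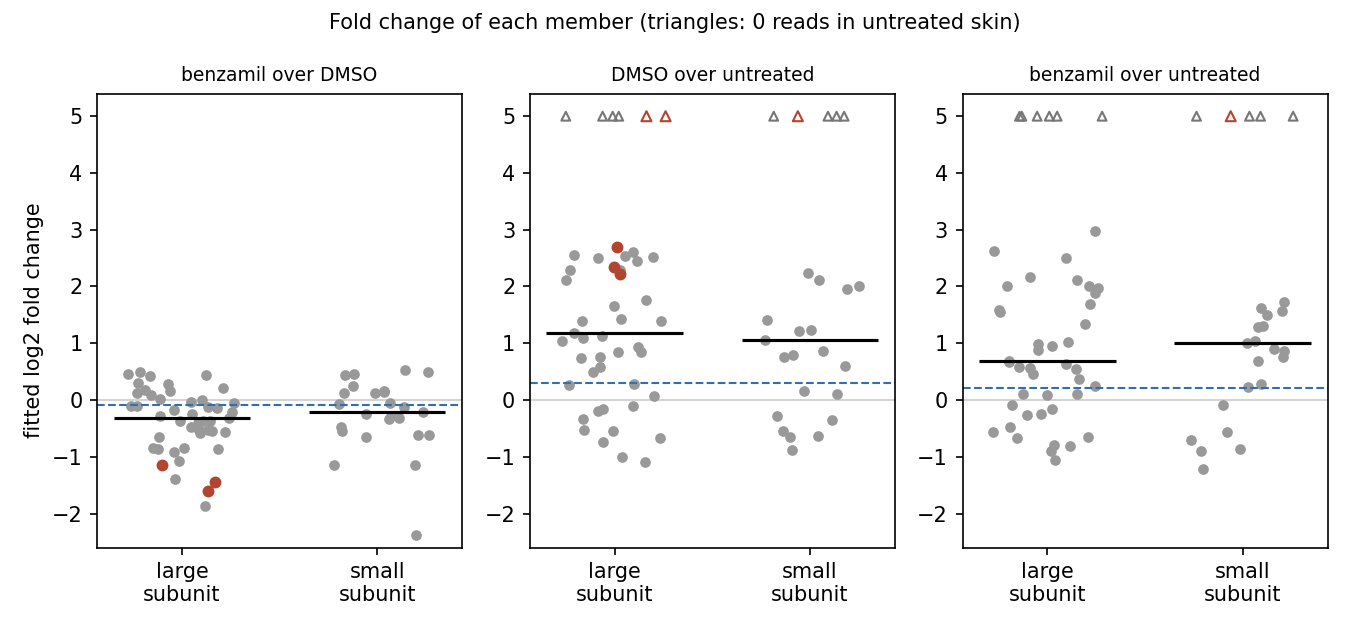
Fitted log2 fold change of each of the 72 members in the 3 comparisons, by subunit. Red marks an edgeR adjusted p under 0.05, black lines are subunit medians and the dashed blue line is the median of all 9779 genes. Triangles along the top are the 11 members with 0 untreated reads, whose fitted values are no measure of size. The 3 members called with benzamil against DMSO are all negative and in the large subunit.

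Imiquimod with DMSO was next compared with untreated skin, where 6 members were higher and 0 lower. These are 12.2% of the 49 tested members, against 9.93% of all tested genes called higher and 8.45% called lower. At an unadjusted p under 0.05 there were 15 members (30.6%), against 33.3% of all tested genes. In this comparison the self-test on simulated reads recovered 9% of 2-fold and 49% of 4-fold changes, so at this depth a difference of moderate size was mostly not detectable. The 6 were Mrpl2, Mrpl15, Mrpl17, Mrpl20 and Mrpl33 of the large subunit and Mrps25 of the small subunit. Without untreated library 1 there were 0 calls. There were 3 without untreated library 2, and also 3 without benzamil library 1, DMSO library 1 or DMSO library 4. Of 21 alternatives, Mrpl17 kept its call in 19, Mrps25 in 18 and Mrpl33 in 16. Mrpl20 kept it in 10, and Mrpl2 and Mrpl15 in 7 each. In 5 of the 21 alternatives Mrpl2 had too few reads for the test.

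Of the 6 called members, 3 had no untreated read, so that only a lower bound of the fold can be given, set against a floor of 3 reads over the untreated group. Mrpl17, with its values given above, was at least 2.93-fold higher with DMSO (edgeR adjusted p = 0.00830). Mrps25, a small subunit protein specific to mitochondria, had 56.1, 59.4, 62.5 and 33.3 CPM with DMSO and 0 reads in both untreated libraries, at least 2.52-fold higher (edgeR adjusted p = 0.0200). Mrpl2, a protein of the peptidyl transferase region, had 31.2, 48.6, 18.4 and 36.1 CPM with DMSO and 0 reads in untreated skin. It was at least 1.59-fold higher (edgeR adjusted p = 0.0442). Mrpl2 had enough reads for the test only through DMSO libraries, so its filter and its call are not independent. The other 3 had 2 untreated reads each. Mrpl33 gave a pooled ratio of 7.25 (counting interval 1.98 to 60.3) and a fitted change of 2.70 ± 0.79 (edgeR adjusted p = 0.0180). Mrpl15 had 70.7, 64.8, 58.9 and 97.2 CPM with DMSO and 0 and 29.7 CPM in untreated skin, a ratio of 5.16 (1.40 to 43.0, edgeR adjusted p = 0.0476). Mrpl20, a protein that binds the 16S RNA, had 79.0, 59.4, 58.9 and 63.8 CPM with DMSO and 13.5 and 14.8 CPM in untreated skin, a ratio of 4.94 (1.34 to 41.2, edgeR adjusted p = 0.0438). The DMSO and untreated libraries of all 6 genes did not overlap. These genes were picked by the test and had 0 or 2 untreated reads, so this adds no separate evidence.

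**Figure D4:**
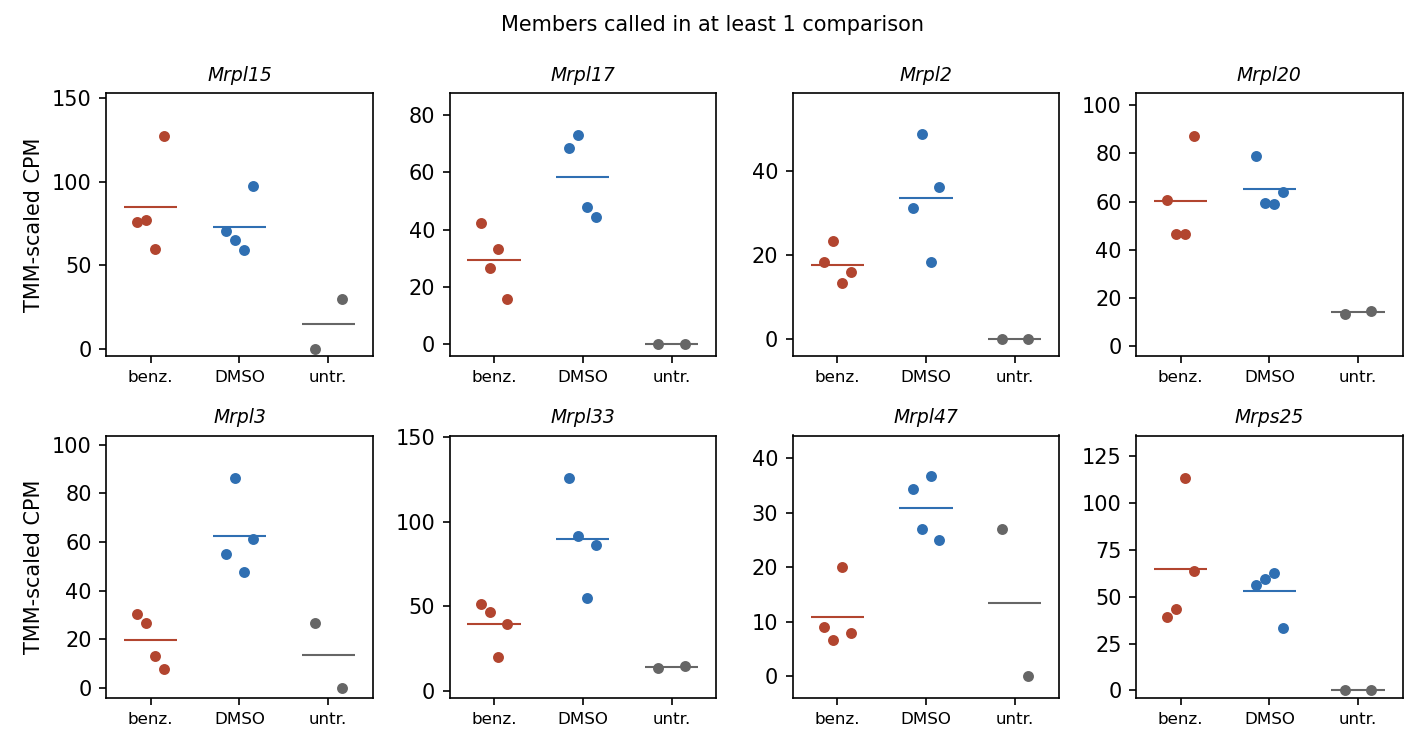
Level of the 8 members called in at least 1 comparison, in TMM-scaled CPM, with 1 point per library and a line at the group mean. Mrpl3, Mrpl33 and Mrpl47 are lower in every benzamil library than in every DMSO library, and Mrpl2, Mrpl17 and Mrps25 have 0 reads in both untreated libraries. These genes were picked by the test on the same libraries, so this adds no separate evidence.

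Across all members, 34 of 72 had every DMSO library above both untreated libraries, or 47.2%, against 31.3% of all genes, and 3 had every DMSO library below both, where the background was 13.7%. The median log2 fold change of the members was 1.15, against 0.31 over all genes. With genes without untreated reads set to their bound, the medians were 0.77 and -0.19. A positive fold change was found for 56 of 72 members (77.8%) and for 58.7% of all genes. The medians of the subunits were 1.18 for the large and 1.06 for the small one. The 3 genes with all DMSO libraries below the untreated ones were Mrpl52, Mrpl58 and Mrps34, and none passed the test. Mrpl58, a peptidyl-tRNA hydrolase built into the large subunit, averaged 26.2 ± 6.7 CPM with DMSO and 55.9 ± 16.1 CPM in untreated skin (-1.01 ± 0.66, edgeR adjusted p = 0.293). Mrps34, a small subunit protein specific to mitochondria, averaged 37.9 ± 8.0 CPM with DMSO and 70.0 ± 15.2 CPM in untreated skin (-0.88 ± 0.57, edgeR adjusted p = 0.297). Mrpl40 had the lowest value of the tested members, -1.10 ± 0.84, with overlapping libraries (edgeR adjusted p = 0.374).

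In benzamil against untreated skin 1 member was higher and 0 lower. It is 2.04% of the 49 tested, against 2.44% of all tested genes called higher and 1.56% called lower, so the members were near the background. The split over all genes was 128 higher and 82 lower, and 63 higher and 105 lower with library totals alone. The member was Mrps25, with 39.4, 43.4, 113 and 63.5 CPM in benzamil libraries and 0 reads in untreated libraries, at least 2.66-fold higher (edgeR adjusted p = 0.0464). The call was lost without benzamil library 3, the highest (adjusted p = 0.0664), without library 4 (0.0607), without DMSO library 2 (0.0564) or 3 (0.0511), and without either untreated library (0.158 and 0.150). At an unadjusted p under 0.05 there were 7 members (14.3%), against 18.9% of all tested genes. Every benzamil library was above both untreated libraries for 18 of 72 members, or 25.0% against 16.7% of all genes, and below both for 4, where the background was 9.96%. Those 4 were Mrpl11, Mrpl52, Mrps17 and Mrps34. Mrps17 averaged 29.1 ± 19.4 CPM with benzamil and 56.6 ± 3.9 CPM in untreated skin (-0.87 ± 0.75, edgeR adjusted p = 0.553). The median over members was 0.89, or 0.55 with the bound, against 0.22 and -0.23 over all genes. Comparisons that share the DMSO or untreated libraries are not independent of each other.

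The members were also split by their origin. The 42 genes with a bacterial counterpart summed to 1606 ± 200.5 CPM with benzamil, 1821 ± 118 CPM with DMSO and 919 ± 147 CPM in untreated skin, which is 1.98-fold for DMSO over untreated. The 30 genes specific to mitochondria summed to 901 ± 56.2, 1005 ± 64.8 and 774 ± 66.7 CPM, or 1.30-fold. Mitochondria-specific genes held 39.3%, 35.1%, 35.2% and 34.6% of the member reads in benzamil libraries, 35.7%, 35.5%, 37.3% and 33.8% in DMSO libraries, and 44.5% and 47.1% in untreated libraries. Both untreated libraries were above all 8 treated ones, on 137 and 104 member reads. With benzamil against DMSO the medians of the log2 fold change were -0.34 for genes with a bacterial counterpart and -0.19 for mitochondria-specific genes.

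The RNA parts of the mitochondrial ribosome were set beside its proteins. The 16S RNA mt-Rnr2, of the large subunit, took 29.3%, 24.0%, 39.6% and 26.4% of the reads in benzamil libraries, 13.5%, 16.0%, 16.8% and 19.3% in DMSO libraries, and 26.3% and 24.2% in untreated libraries. It was higher with benzamil than with DMSO by 1.16 ± 0.30 (edgeR adjusted p = 0.00652). In that comparison 0 of the 35 tested large subunit protein genes were called higher, against 9.91% of all tested genes. The call of mt-Rnr2 was lost with limma on the deposited log2 values (adjusted p = 0.173). It was also lost in edgeR without benzamil libraries 3 and 4 (adjusted p = 0.0610). Its change between DMSO and untreated skin was -0.71 ± 0.35 (edgeR adjusted p = 0.158). The 12S RNA mt-Rnr1, of the small subunit, had 36262 to 58285 CPM with benzamil, 42121 to 54164 CPM with DMSO, and 25842 and 27987 CPM in untreated skin. It passed no test, with 0.01 ± 0.24 for benzamil against DMSO and 0.80 ± 0.30 for DMSO against untreated skin (edgeR adjusted p = 0.0652). Such kits prime on poly(A), and the adenylation of these RNAs was not measured.

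**Figure D5:**
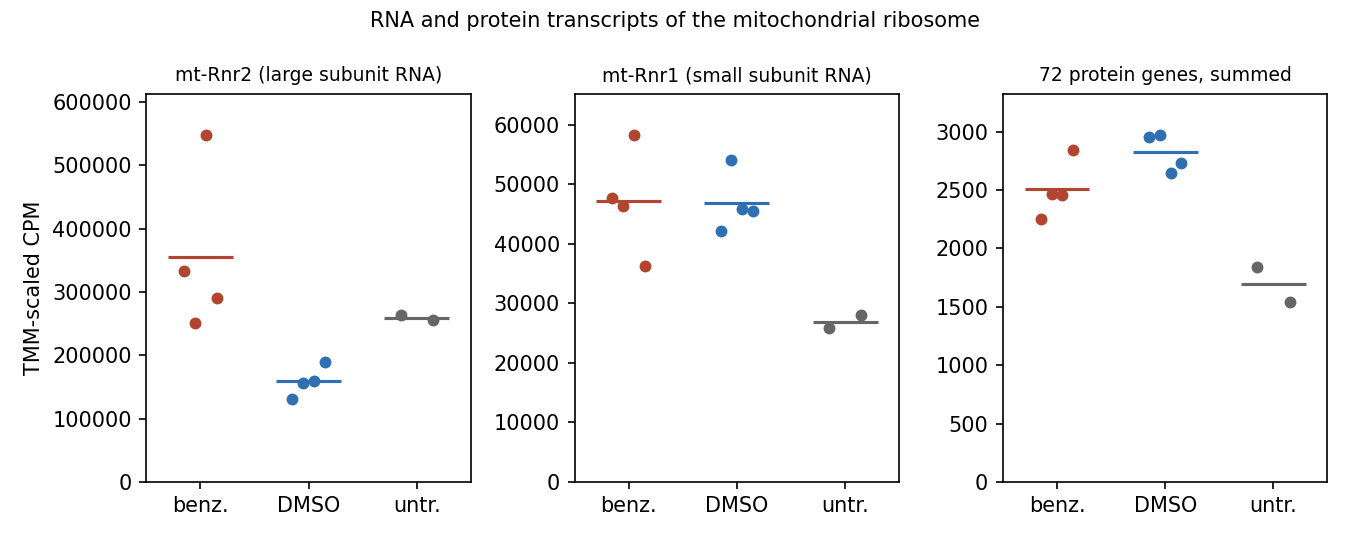
Levels of the 16S RNA, the 12S RNA and the summed 72 protein genes in TMM-scaled CPM, with 1 point per library and a line at the group mean. The 16S RNA averages higher with benzamil than with DMSO (355365 and 159001 CPM), while the protein genes average 2507 and 2826 CPM.

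Other genes of the same machinery were taken from lists by function. The first list held 9 symbols, for mitochondrial ribosomal proteins under other or older names and the membrane insertase Oxa1l. Ict1 and Mrp63 on it are older symbols of the members Mrpl58 and Mrpl57, so it does not hold 9 further ribosomal proteins. Of the 9 symbols, 6 were listed in both tables and 4 tested, and 0 were called in any of the 3 comparisons. The same count of 0 was found for 9 tested assembly and rRNA processing factors, 3 tested translation factors and 4 tested regulators of mitochondrial transcription and biogenesis. Of all tested genes, 9.91% were higher and 12.1% lower for benzamil over DMSO, and 9.93% and 8.45% for DMSO over untreated. For benzamil over untreated the shares were 2.44% and 1.56%. With so few genes tested, a count of 0 does not show that a list was unchanged. Summed levels of the assembly factors were 361 to 494 CPM with benzamil, 486 to 592 CPM with DMSO, and 386 to 417 CPM in untreated skin. The last list holds the machinery of protein import. Of its 15 tested genes, 4 were lower with benzamil than with DMSO and 0 higher, against 12.1% and 9.91% of all tested genes. In this list 3 were higher with DMSO than in untreated skin and 0 lower, against 9.93% and 8.45% of all tested genes. Its summed level was 700.5 to 770.3 CPM with benzamil, 949 to 1172 CPM with DMSO, and 282 to 606 CPM in untreated skin, without overlap between any of the groups. All called import genes belong to the outer membrane complex through which the ribosomal proteins enter mitochondria. Tomm40, its channel, averaged 4.63 ± 7.20 CPM with benzamil and 43.6 ± 20.4 CPM with DMSO (-2.80 ± 0.60, edgeR adjusted p = 0.00155). In the benzamil libraries 1 read was worth 3.03 to 7.94 CPM, so the benzamil mean of Tomm40 rests on few reads. The receptors Tomm22 and Tomm70a changed by -1.35 ± 0.36 and -0.95 ± 0.28, and Tomm7, a small part of the complex, by -1.07 ± 0.31. Without DMSO library 1 the calls of Tomm7, Tomm22 and Tomm70a were lost (edgeR adjusted p = 0.0697, 0.0707 and 0.0513). That of Tomm70a was also lost without benzamil library 1 or 2 (adjusted p = 0.0819 and 0.0554), and those of Tomm7 and Tomm22 without benzamil libraries 3 and 4 (0.170 and 0.0574). The 3 higher with DMSO than in untreated skin were Tomm7 (2.13 ± 0.67), Tomm70a (1.81 ± 0.59) and Tomm22, which had 123 reads with DMSO and 0 untreated reads. Without untreated library 1 all 3 of these calls were lost, with adjusted p from 0.0701 to 0.250. Those of Tomm7 and Tomm70a were also lost without DMSO library 1 (0.0522 and 0.0581), and that of Tomm70a without untreated library 2 (0.0938).

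Markers of cell types and of proliferation also differed between the groups. All 11 listed keratinocyte markers were present in both tables and in every library. Their summed level was 61722 to 77317 CPM with benzamil, 33780 to 48647 CPM with DMSO, and 23837 to 26756 CPM in untreated skin. Single markers did not all follow the sum. All 11 were tested, and with benzamil against DMSO 5 were higher and 0 lower. With DMSO against untreated skin 6 were higher and 2 lower. With benzamil against untreated skin 5 were higher and 1 lower, where 2.44% of all tested genes were higher and 1.56% lower. The 15 cell cycle genes summed to 998 to 1382 CPM, 1546 to 1885 CPM, and 565 to 712 CPM in the same order. Of the 14 tested, 7 were lower with benzamil than with DMSO, where 12.1% of all tested genes were lower and 9.91% higher. With DMSO against untreated skin 8 were higher, where 9.93% of all tested genes were higher and 8.45% lower. Of the 15 cell cycle genes, 8 and 9 had 0 reads in the untreated libraries. Neutrophil markers, 5 of 12 present, summed to 213 to 4249 CPM, 11040 to 18343 CPM, and 44.5 to 215 CPM, and Retnlg had 0 reads with benzamil. The neutrophil list names S100a8 and S100a9, which are not restricted to neutrophils, so its sum is no measure of neutrophil content. Skeletal muscle markers, 16 of 18 present, summed to 794 to 1841 CPM, 228 to 1328 CPM, and 3218 to 3701 CPM. The 11 fibroblast and matrix markers summed to 934 to 2533 CPM, 965 to 1291 CPM, and 8484 to 19543 CPM. Sebaceous gland markers, 9 of 10 present, summed to 5001 to 8561 CPM, 1890 to 3645 CPM, and 6318 to 9193 CPM. Of the 7 tested, 4 were higher with benzamil than with DMSO, against 9.91% of all tested genes. The part of these markers in the levels of the ribosomal protein genes was not tested.

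All 73 members carried the same symbol at their identifier in GENCODE M21 on mm10. The called genes lie at chr17:46646229-46650139 for Mrpl2, chr9:105053239-105079888 for Mrpl3, chr5:31596935-31664384 for Mrpl33 and chr4:155802878-155809975 for Mrpl20 on the plus strand. On the minus strand lie Mrpl15 at chr1:4773206-4785739, Mrpl17 at chr7:105803206-105811099, Mrpl47 at chr3:32725397-32737605 and Mrps25 at chr6:92169525-92184033. Because the libraries read transcript ends, other genes over the last 500 bases matter. On the same strand Gm26904 overlaps the end of Mrpl2 and Gm43809 that of Mrpl33. On the opposite strand lie Gm47106 at Mrpl3, Gm15645 at Mrpl17, Rbks at Mrpl33, Actl6a at Mrpl47 and Nr2c2 at Mrps25. The strand setting of the counting is not given in the sources used here, so reads of these genes and of the members cannot be told apart, and processed pseudogene copies were not examined.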

How the data were processed

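The members and gene lists were chosen with earlier results of these data known. Per the labels, RNA was made into libraries with a Lexogen 3′ mRNA kit with molecular identifiers; STAR, featureCounts and DESeq2 with mm10 were used per the submitters' processing notes, with versions not given in the sources used here, nor whether identifiers were collapsed. The authors deposited 2 tables of log2 values (variance-stabilised by DESeq2, normalized separately) and 2 DESeq2 tables with a mean signal, a log2 fold change, the score of the Wald test, and raw and adjusted p-values. Fold changes in one of them run as untreated minus DMSO. A deposited table of counts holds 61533 human identifiers and 0 mouse ones and enters no comparison.

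The design named a count test; since the deposited mouse values are log2, the transform was inverted into reads. Within 0.001 reads, 100% of the inverted values were whole in each library, and 39116 of 39116 DMSO values in both tables were equal. The 9779 genes of both tables were joined. In edgeR 4.0.16 (R 4.3.3), 1 quasi-likelihood fit over 10 libraries used TMM scaling, no covariate and filterByExpr (minimum count 10, total 15), which kept 5245 genes. Tested on simulated reads for benzamil over DMSO, it recovered 48% of 2-fold and 94% of 4-fold changes among 5245 genes. Standard errors are approximate, the log2 fold change over the square root of F. Sums and ratios are descriptions without a test. Counting intervals are exact at 95%.

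Named members are those called in any comparison, the 4 with the highest mean level in each subunit, and the 3 largest and 3 smallest tested fold changes in each comparison, and any member in a single table; others are named only in counts of groups that do not overlap. Alternatives were DESeq2 1.42.0, limma 3.58.1 on the deposited log2 values, other scalings and filters, a replicate block and leaving out libraries. The scaling without rRNA reads for calls, leaving out benzamil libraries 3 and 4, and the reassignment of Mrps18a and Mrps30 were chosen after seeing the data.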

Additional observations from a re-analysis of the deposited data

Results flagged for a closer look

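Benzamil library 1 stood apart from its group in the share of member reads on mitochondria-specific genes, with 39.3% against 34.6% to 35.2% in the other 3 benzamil libraries. This gap was the only one past Dixon's limit among 52 groups of values examined, and chance passes it in about 1 of 20 groups. Outside the comparisons, the deposited count table with human identifiers held 259 reads on 36 of 78 symbols of mitochondrial ribosomal proteins. That table was not used for any value of the mouse genes.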

How the results depend on the processing

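No called member changed sign under any alternative. Against 3 members lower with benzamil than with DMSO, library totals alone gave 6, limma on the deposited log2 values 5 (6.85%, against 7.08% of all its genes), and the fit without benzamil libraries 3 and 4 gave 0 (1 to 4 when single libraries were left out). The summed level for benzamil over DMSO was -0.42 on the log2 scale with library totals alone. The median was -0.13 among members that passed the filter and -0.51 with library totals alone (-0.38 to -0.21 when single libraries were left out). Against 6 members higher with DMSO than in untreated skin, DESeq2 gave 2, the authors' deposited fits also 2, all genes of the comparison's own log2 values 3, the 2 groups alone 3, totals without rRNA 3 and limma 24 (33.3%, against 24.1% of all its genes; 0 to 7 when single libraries were left out). The summed level was then 0.60 and the median 1.01 with totals without rRNA (0.62 to 0.87 and 1.07 to 1.73 when libraries were left out), and the subunit ratio, 0.13 over all libraries, changed sign to -0.23 without untreated library 1 and was 0.59 without library 2. Against 1 member higher with benzamil than in untreated skin, 0 were found with DESeq2 size factors, library totals alone, totals without rRNA, the 2 groups alone, and without benzamil libraries 3 and 4 (0 to 1 when single libraries were left out). The summed level was 0.40 with library totals alone and 0.39 without rRNA, the median 0.72 and 0.73 (0.81 to 1.73 when libraries were left out), and the subunit ratio, -0.06 over all libraries, ran from -0.41 without untreated library 1 to 0.41 without library 2. It also changed sign among members that passed the filter (0.06), without benzamil library 3 (0.03) and without benzamil libraries 3 and 4 (0.06). The cause of these shifts was not tested. With a replicate block 3 members were lower for benzamil over DMSO, and 0 were higher for DMSO over untreated or benzamil over untreated. Same-numbered libraries correlated by 0.0007 to 0.07 between benzamil and DMSO, by -0.118 and -0.014 between DMSO and untreated, and by -0.110 and 0.116 between benzamil and untreated, so the numbers are not shown to pair samples. The 10 calls of members were kept in 130 of 207 pairs of a call and an alternative, lost in 61, and in 16 the member had too few reads for the test. Of 984 values of named members that were not called, 10 were called under an alternative. Untreated libraries of 74614 and 71144 reads limit all comparisons with untreated skin.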
